A study of Mus musculus with 6 samples.

Results

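Methylated DNA of mouse blood cells was mapped by MBD2 pulldown, and the stretches described here are the peak-rich megabases in which the erythroblast list holds fewest peaks for the number that stem cells have. The 19 autosomes were cut into 1 Mb windows from position 0, and each peak was placed by its midpoint. A window was taken when it held 50 or more peaks of the hematopoietic stem cell (HSC) list and when its erythroblast (ERY) count was at most 0.20 of its HSC count. Of 581 windows with 50 or more HSC peaks, 27 met the limit (4.65%). They are called low-ratio windows, and the remaining 554 are called the other peak-dense windows. The low-ratio windows hold 1599 HSC peaks, out of 83430 on the autosomes and 85797 in the whole HSC list. The windows were thus chosen by their measured HSC and ERY peak counts, so low ERY counts in them are the choice itself and not a result. The list of common myeloid progenitors (CMP) did not enter the rule. HSC peaks that overlap an ERY peak mostly overlap a CMP peak too, so CMP values are not independent of the choice.

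The study followed methylation from HSC through CMP to ERY, the nucleated precursors of red cells, in adult female mice of the C57BL/6 background. HSC and CMP were sorted from bone marrow cells depleted of lineage-positive cells, both as c-kit-positive, with Sca-1 present on HSC and lacking on CMP. The labels name no sort or source tissue for ERY, and the series' samples hold no expression data against which the cell names could be checked. Each cell type has 1 MBD2-enriched library with a deposited peak list, and the 3 supernatant libraries are not analysed here. Nothing states whether a library came from 1 animal or from a pool. The lists give positions only and run to 85797 entries (HSC), 50638 (CMP) and 27839 (ERY), so the depth of each library is unknown. A single library stands for each cell type, so differences between them lack any replicate and were not tested.

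DNA methylation in mammals sits mostly on cytosines followed by guanine (CpG). MBD2 binds such methylated CpG sites, so a pulldown peak marks a stretch dense enough in them to be recovered. Methylation patterns are copied at each cell division by the maintenance methyltransferase Dnmt1 and can be diluted or removed as cells differentiate. The erythroid lineage of the mouse is known for a broad loss of DNA methylation during its maturation. Where a list has no peak, none was called, and low methylation cannot be told apart there from low sensitivity of that library.

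Per low-ratio window the HSC list held 50 to 100 peaks (median 56), the CMP list 14 to 63 (median 28) and the ERY list 6 to 20 (median 10). Summed over the 27 windows this came to 1599 HSC, 802 CMP and 278 ERY peaks. Every window thus followed the order of the 3 lists. The ranges of the HSC and ERY counts did not overlap, which the limit on their ratio fixes to a large degree. In covered bases, the ERY list reached 227.89 kb and the HSC list 1278.9 kb in these windows, a ratio of 0.178, close to the ratio of 0.174 in peak counts. For comparison, the ERY to HSC count ratio was 0.349 in the other peak-dense windows and 0.327 over all autosomes.

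**Figure D1:**
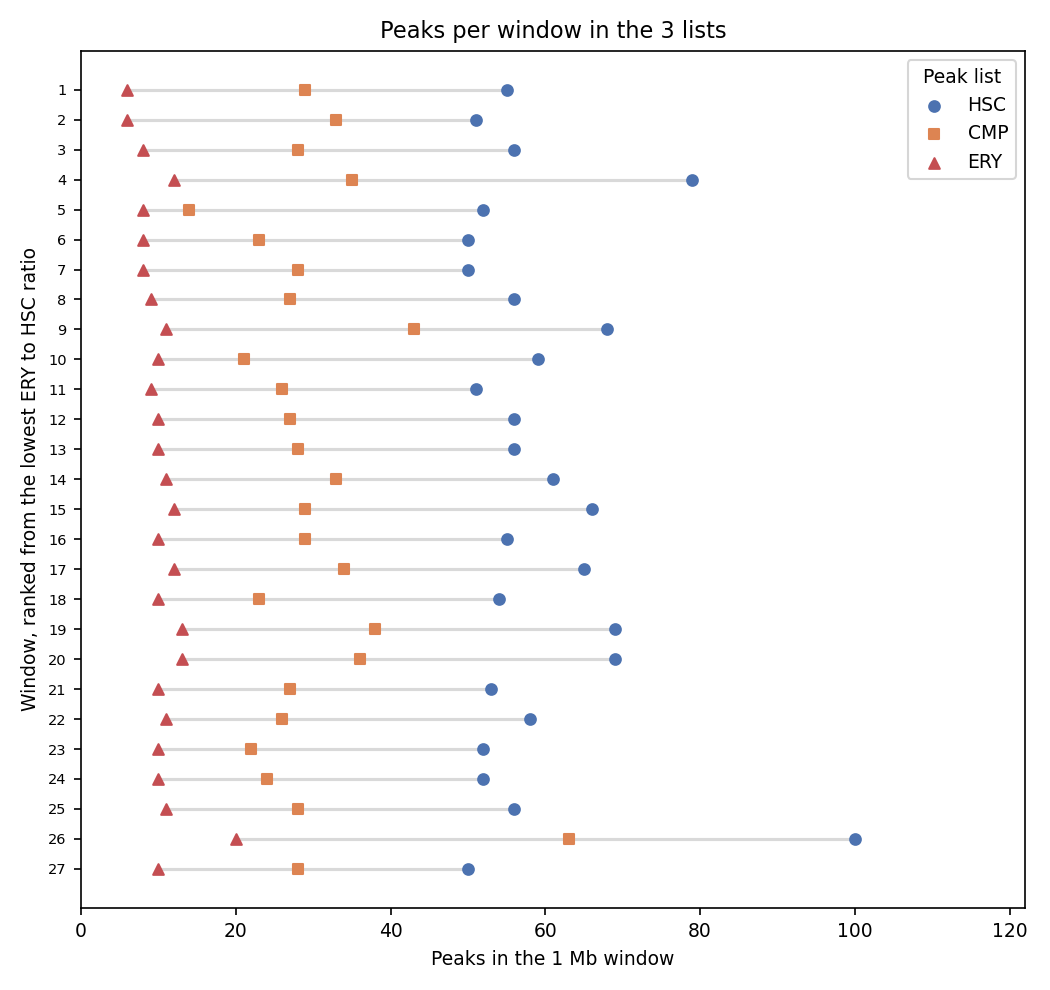
Peaks per 1 Mb window (horizontal axis) in the HSC, CMP and ERY lists for the 27 low-ratio windows, ranked down the page from the lowest ERY to HSC ratio, with 1 library per list. The ERY counts lie between 6 and 20, the CMP counts between 14 and 63 and the HSC counts between 50 and 100.

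The windows were spread over 14 of the 19 autosomes. Chromosome 8 carried 6 of the 27, out of 46 peak-dense windows on that chromosome, and chromosome 11 carried 3 out of 41. No other chromosome had more than 2. The only neighbours among them were 2 windows on chromosome 8, from 35000001 to 37000000. Coordinates are 1-based on mm9 throughout.

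The lowest ERY to HSC ratio was on chromosome 1 at 136000001 to 137000000, with 55 HSC peaks, 29 CMP peaks and 6 ERY peaks (0.109). On chromosome 6 at 52000001 to 53000000 there were 51, 33 and 6 in the same order of stages (0.118). The next was on chromosome 13 at 43000001 to 44000000, with 56, 28 and 8 (0.143). These 3 windows alone had a ratio under 0.15.

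Further up the ranking, chromosome 4 at 124000001 to 125000000 held 79 HSC, 35 CMP and 12 ERY peaks, the second largest HSC count of the set. On chromosome 17 at 75000001 to 76000000 the counts were 52, 14 and 8, and 14 was the lowest CMP count of the 27 windows. Chromosome 11 at 52000001 to 53000000 had 50, 23 and 8, and chromosome 4 at 127000001 to 128000000 had 50, 28 and 8. These windows differ both in their HSC counts (50 to 79) and in their CMP counts (14 to 35).

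The ranks from 8 to 10 were taken by chromosome 7 at 142000001 to 143000000, with 56 HSC, 27 CMP and 9 ERY peaks, by chromosome 8 at 121000001 to 122000000, with 68, 43 and 11, and by chromosome 15 at 95000001 to 96000000, with 59, 21 and 10. The largest HSC count of the set stood at the limit itself, on chromosome 8 at 48000001 to 49000000, with 100, 63 and 20. Chromosome 11 at 114000001 to 115000000 and chromosome 8 at 110000001 to 111000000 shared the third place in HSC peaks, with 69 each. They had 38 and 36 CMP peaks and 13 ERY peaks each.

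Near the ratio limit the choice is a cut through a continuous range. Just inside were the chromosome 8 windows at 48000001 and 36000001 (0.20 each) and chromosome 3 at 148000001 to 149000000 (0.196). Just outside were chromosome 1 at 39000001 to 40000000 (0.203), chromosome 1 at 154000001 to 155000000 (0.204) and chromosome 8 at 129000001 to 130000000 (0.204). For the HSC minimum, 3 windows inside had exactly 50 peaks, and 12 windows with 45 to 49 HSC peaks met the ratio limit but not the minimum. The nearest of these were chromosome 14 at 47000001 to 48000000 with 49, chromosome 10 at 84000001 to 85000000 with 48 and chromosome 3 at 122000001 to 123000000 with 48.

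Single HSC peaks were then followed into the later lists. A peak was called kept when at least 1 bp of it was covered by a peak of the other list. In the low-ratio windows 83.7% of the 1599 HSC peaks had no ERY peak (95% exact binomial interval 81.8 to 85.5%), against a background of 68.9% over all autosomal HSC peaks. That share follows from the rule and nothing is read from it. In the CMP list, which the rule did not use directly, 824 of the 1599 peaks (51.5%, 49.1 to 54.01%) had no counterpart, against a background of 43.1%. This share is not independent of the rule, since 253 of the 261 peaks kept in ERY were also kept in CMP. In the other peak-dense windows 13789 of 14386 were. The intervals are Clopper-Pearson intervals. They treat peaks as independent, which peaks of 1 window need not be, and they cover counting error only.

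Set beside the other peak-dense windows, the kept share in CMP was 48.5% (46.0 to 50.9%) in the low-ratio windows and 58.3% (57.8 to 58.8%) in the others. The difference was -9.82 percentage points, with a Newcombe 95% interval of -12.3 to -7.32. In 24 of the 27 windows the kept share in CMP was below the pooled value of the others, and over the windows it ran from 25 to 62.7% with a median of 49.1%. How many of the other windows lay below that pooled value was not counted. By CMP to HSC count ratio, 24 of the 27 lay below the peak-dense median of 0.588, as did 288 of all 581. Without each window in turn the difference ranged from -10.7 to -9.03. With 60 or more HSC peaks per window it was -6.23 points, and with a ratio limit of 0.15 it was -4.24, where its interval of -11.9 to 3.28 includes 0. With the wider 50% of each list it was -6.03, and its interval of -12.6 to 0.732 includes 0 as well. The comparison shares the HSC list on both sides, and how far that list alone moved it was not tested. The difference is also tied to the rule, as most peaks kept in ERY were kept in CMP as well. Among peaks without an ERY peak, 61.0% lacked a CMP peak in the low-ratio windows and 60.8% in the others. Among peaks kept in ERY, 253 of 261 and 13789 of 14386 were kept in CMP. Split by ERY in this way, both sets were close, and no CMP difference beyond the one in ERY share was shown.

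The CMP counts were lower by median in 3 of 4 classes of like HSC count. Among windows with 50 to 54 HSC peaks, the 10 low-ratio windows had a median of 25 CMP peaks (14 to 33), and the 86 others a median of 30 (22 to 43). With 55 to 59 HSC peaks, the 9 low-ratio windows had a median of 28 (21 to 29) and the 58 others 33 (22 to 41). With 60 to 79, the 7 low-ratio windows had 35 (29 to 43) and the 205 others 39 (26 to 67). With 80 to 100 the order was the reverse, since the single low-ratio window, on chromosome 8 at 48000001, had 63 CMP peaks and the 113 others a median of 53 (36 to 71). The ranges of the groups overlapped in each class. Of the 27 windows, 20 had a CMP to HSC ratio below 0.533, the lower quartile of all peak-dense windows, against a background of 24.4%. Low CMP counts in these windows are tied to the rule, as most peaks kept in ERY were also kept in CMP. Whether any part of them goes beyond the ERY counts was not tested by class.

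**Figure D2:**
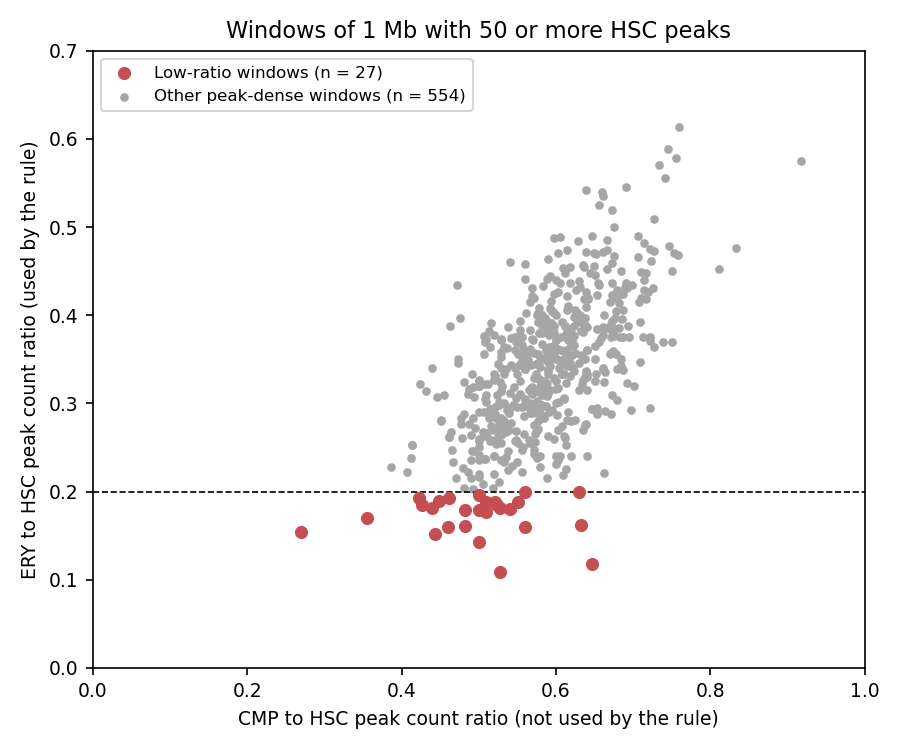
CMP to HSC peak count ratio (horizontal) against ERY to HSC peak count ratio (vertical) for the 581 windows of 1 Mb with 50 or more HSC peaks, with the dashed line at the limit of 0.20. The low-ratio windows lie under the line by choice and span CMP to HSC ratios from 0.269 to 0.647, so most but not all sit to the left of the median of 0.588. Both ratios share the HSC count, and HSC peaks kept in ERY were mostly kept in CMP too, so the axes are not independent.

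Sorting the HSC peaks of the low-ratio windows by the lists in which they reappear gave 4 classes. HSC alone held 816 peaks (51.0%, interval 48.6 to 53.5%), against 40.3% in the other peak-dense windows. HSC and CMP without ERY held 522 (32.6%, 30.3 to 35.01%), against 25.99%. All 3 lists held 253 (15.8%, 14.1 to 17.7%), against 32.3%. HSC and ERY without CMP held 8 peaks (0.5003%, 0.216 to 0.983%), against 1.40%. The classes without ERY make up the larger share by the rule. How they divide is not fixed by it. Of the peaks without ERY, 61.0% (58.3 to 63.6%) already lacked a CMP peak in the low-ratio windows, and 60.8% (60.2 to 61.4%) did in the others. The difference between these shares lay within the counting interval of the low-ratio windows.

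The course of the peaks from CMP on is fixed in part by the rule and is given as a description. Of the 775 HSC peaks kept in CMP, 32.6% (29.4 to 36.1%) were also kept in ERY, against 55.4% (54.8 to 56.0%) in the other peak-dense windows. Of the 824 absent from CMP, 0.971% (0.420 to 1.90%) had an ERY peak, against 3.35% (3.09 to 3.63%).

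The 27 windows varied in their CMP peaks, with CMP to HSC ratios of 0.269 to 0.647, against 0.386 to 0.918 in the other peak-dense windows. In 24 of the 27 (88.9%) the class of HSC alone was larger than that of HSC and CMP, against 504 of the 554 others (91.0%), and in 3 it was smaller. Those 3 had the highest CMP to HSC ratios. They were the windows on chromosome 6 at 52000001 (0.647), on chromosome 8 at 121000001 (0.632) and on chromosome 8 at 48000001 (0.630). The first of them had 19 peaks found in HSC alone, 28 shared with CMP only and 4 shared by all 3 lists. At the other end were chromosome 17 at 75000001 (0.269), chromosome 15 at 95000001 (0.356) and chromosome 12 at 87000001 to 88000000 (0.423). The window on chromosome 17 had 38 peaks without a later counterpart, 6 shared with CMP only, 1 shared with ERY only and 7 shared by all 3. The low ERY counts therefore came with long CMP lists in some windows and with short ones in others.

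The densest 100 kb of these windows did not always follow the window as a whole. In the chromosome 6 window, the densest 100 kb (52100001 to 52200000) held 13 HSC peaks between 52113167 and 52157118, of which 12 were kept in CMP and 0 in ERY. By general knowledge of the mm9 map, which was not checked against an mm9 annotation, this stretch belongs to the Hoxa cluster. Hoxa genes encode homeobox transcription factors, and Hoxa9 in particular is known for its activity in stem and progenitor cells. In the chromosome 15 window, the densest 100 kb (95600001 to 95700000) held 12 HSC peaks, of which 0 were kept in CMP and 0 in ERY. In the window with most HSC peaks, chromosome 8 at 48900001 to 49000000 held 23, of which 11 were kept in CMP and 4 in ERY, while 62 of the 100 in the whole window were kept in CMP. On chromosome 17 the densest 100 kb (75000001 to 75100000) held 8, of which 4 were kept in CMP and 4 in ERY, while 13 of the 52 in the whole window were kept in CMP.

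**Figure D3:**
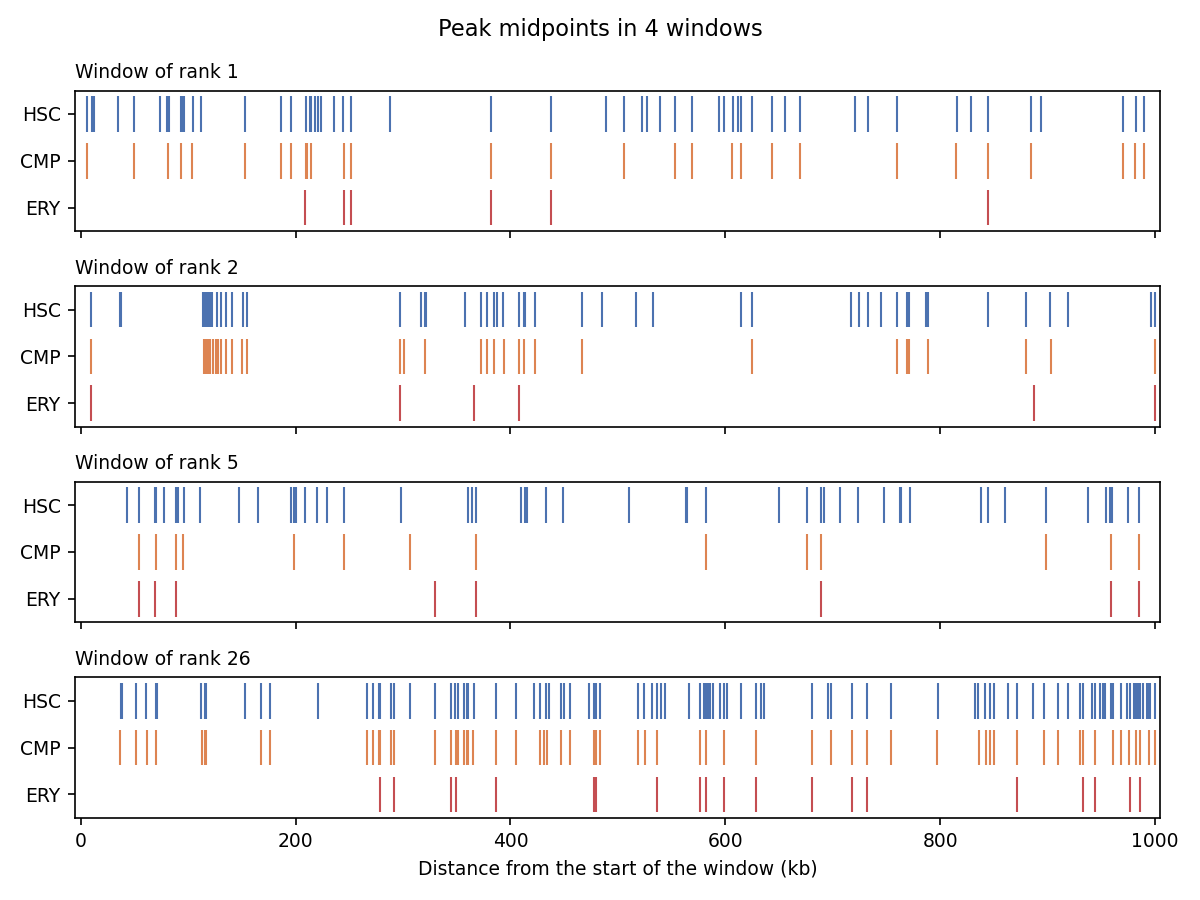
Midpoints of HSC, CMP and ERY peaks along 4 low-ratio windows (distance from the window's start in kb), namely the one with the lowest ERY to HSC ratio (rank 1), those with the highest and the lowest CMP to HSC ratio (ranks 2 and 5) and the one with most HSC peaks (rank 26). In the window of rank 2 a tight group of 13 HSC peaks carries CMP peaks and no ERY peak, while in the window of rank 5 both later lists are sparse, with 14 CMP and 8 ERY peaks.

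Stretches of HSC peaks without an ERY peak were laid out as follows. Of 172 bins of 100 kb with 5 or more HSC peaks in the low-ratio windows, 57 (33.1%) had no peak kept in ERY, against 255 of 4007 (6.36%) in the other peak-dense windows. The longest unbroken run of HSC peaks without an ERY peak had a median of 13 peaks per window (9 to 28), against 9 (3 to 22) in the others. The run with most peaks was on chromosome 8 from 121375471 to 121800628, with 28 HSC peaks over 425.16 kb, and 15 of these were kept in CMP. The chromosome 7 window had a run of 25 from 142074639 to 142356653 over 282.01 kb (7 kept in CMP), and the chromosome 6 window one of 23 from 52412143 to 52996307 (11 kept in CMP), which at 584.16 kb was the longest in bases. These runs describe how the loss that chose the windows is laid out, and they hold no independent support for it.

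The width of a peak is the single property that the lists give. HSC peaks of the low-ratio windows had a median width of 753 bp (interquartile range 596 to 939.5), against 788 bp (627 to 996) in the other peak-dense windows. Those in all 3 lists were widest, with a median of 925 bp, those in HSC and CMP had 796 bp and those in HSC alone 694 bp. The other peak-dense windows had 922, 797 and 703 bp for the same classes. Class by class, the medians of both sets were thus close together.

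The CMP difference was also present among peaks of like width, where it again comes with the smaller ERY share set by the rule. Peaks of like width were not split by ERY, so a CMP difference apart from the ERY share was not tested there. In each width class the low-ratio windows had a smaller share kept in ERY, and most peaks kept in ERY are kept in CMP. When HSC peaks were set side by side within width deciles of the autosomal HSC list, the share kept in CMP was lower in the low-ratio windows in each of the 10 deciles, with differences of -2.61 to -11.6 points. The intervals lay apart in 4 of the 10. Of the narrowest decile (246 to 461 bp), 26.97% of 152 peaks (20.1 to 34.8%) were kept in CMP in the low-ratio windows and 34.2% (32.7 to 35.9%) in the others. Of the widest (1175 bp and above), 74.1% of 139 (66.0 to 81.2%) were kept, against 84.8% (83.8 to 85.7%). Averaged over deciles with the weights of the low-ratio windows, the difference was -7.64 points. In ERY, 38.8% of the widest decile (30.7 to 47.5%) and 5.26% of the narrowest (2.30 to 10.1%) were kept in the low-ratio windows, against 62.9% and 13.9% in the others.

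**Figure D4:**
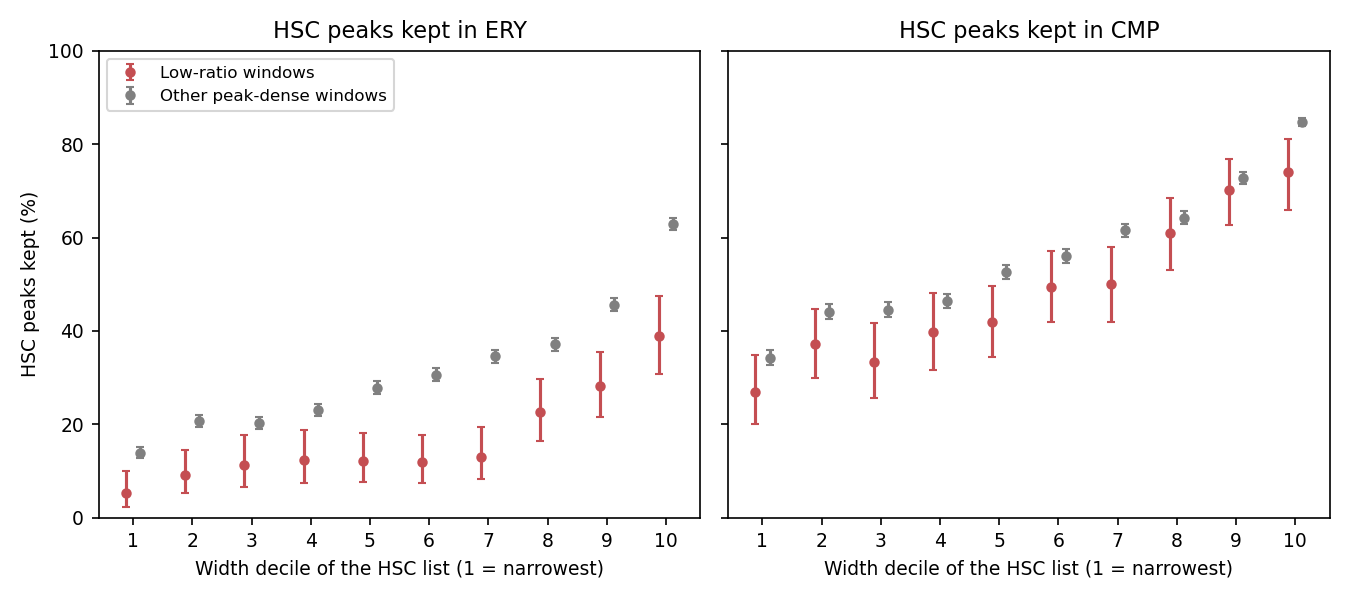
Share of HSC peaks kept in ERY (left, used by the rule) and in CMP (right) by width decile of the autosomal HSC list, for low-ratio windows and the other peak-dense windows, with 95% exact binomial intervals for counting error as bars. Kept shares are higher for wider peaks in both sets, and the low-ratio windows lie lower in 10 of 10 deciles in both panels, with intervals apart in 10 deciles for ERY and 4 for CMP. Most peaks kept in ERY were also kept in CMP, so the right panel is not independent of the rule.

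Among HSC peaks of the low-ratio windows without any later peak, the 5 widest were examined. A peak of 2592 bp spans 48862236 to 48864827 of chromosome 8, with others of 2074 bp (48472089 to 48474162) and 1739 bp (48979408 to 48981146) nearby. One of 2163 bp spans 72375174 to 72377336 of chromosome 6, and one of 1780 bp spans 27362474 to 27364253 of chromosome 3. The 3 on chromosome 8 fall in the window with most HSC peaks, where 62.0% of HSC peaks were kept in CMP.

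Among HSC peaks with a CMP peak and none in ERY, the widest were both in the chromosome 6 group named above. They lay at 52152373 to 52157118 (4746 bp), where the CMP peak measured 4695 bp, and at 52125197 to 52127945 (2749 bp), where 2 CMP peaks summed to 3114 bp. A peak of 2568 bp spanning 36246006 to 36248573 of chromosome 8 met a CMP peak of 1320 bp. One of 2031 bp spanning 66617653 to 66619683 of chromosome 18 met 2 CMP peaks of 1822 bp in sum, and one of 1937 bp spanning 121994170 to 121996106 of chromosome 8 met a CMP peak of 977 bp. These 5 were picked for their HSC width, so a smaller CMP length at some of them is no finding.

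The widest peaks that all 3 lists shared were narrower after the HSC stage. On chromosome 1 at 134833670 to 134836050 the HSC peak measured 2381 bp, the CMP peak 1942 bp and the ERY peak 921 bp. On chromosome 8 at 36446739 to 36448949 the widths were 2211, 1218 and 1321 bp. On chromosome 3 at 148497690 to 148499768 they were 2079, 1810 and 811 bp, and on chromosome 15 at 95778328 to 95780312 they were 1985, 1133 and 1057 bp. The fifth, on chromosome 18 at 53111048 to 53113011, measured 1964 bp in HSC and 941 bp in CMP, with 2 ERY peaks of 1231 bp in sum. These 5 were picked for their HSC width, so a smaller width in the later lists is no finding.

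Over all 253 shared peaks the median width in bp was 925 for HSC, 914 for CMP and 803 for ERY. The median ratio of ERY to HSC width was 0.882 in the low-ratio windows and 0.906 in the other peak-dense windows, and ERY was narrower in 63.6% and 63.4% of peaks. Where an ERY peak remained, its width relative to HSC was thus close to that of the other windows.

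Peaks of the later lists that overlap no HSC peak were few. The low-ratio windows held 27 such CMP peaks (3.37% of 802, interval 2.23 to 4.86%), against 2.79% in the other peak-dense windows. They held 19 such ERY peaks, or 0.704 per window, against 0.948 per window in the others. The rule limits the ERY count to which such peaks belong, so it can lower their number per window. As a share of the ERY peaks, the 19 made up 6.83% of 278, against 3.52%. There the rule itself lowers the number of ERY peaks in the denominator. For CMP the mean was 1 per window, against 1.28, and such CMP peaks lay in 19 of the 27 windows. These ERY peaks lay in 13 of the 27 windows. None of the 27 CMP and 19 ERY peaks exceeded 1000 bp. The 19 ERY peaks stand beside 1338 HSC peaks of the same windows that had no ERY counterpart.

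HSC peaks of the low-ratio windows were spaced less tightly than those of the other peak-dense windows, which also hold more peaks (median of 56 against 70.5 per window). The nearest other HSC peak was at a median of 4047 bp, against 2751 bp, and 53.9% (51.4 to 56.4%) had one within 5 kb, against 66.4% (65.9 to 66.8%). In the low-ratio windows 50.2% of peaks with such a neighbour and 46.4% of those without were kept in CMP, against 59.9% and 55.03% in the others. In ERY the shares were 16.7% and 15.9%, against 35.7% and 29.8%.

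Ratios were also taken outside the windows, but the rule shaped that set too, since low-ratio windows were left out of it. Neighbours with 50 or more HSC peaks therefore lie above the ratio limit by the rule. Their lowest ERY to HSC ratio was 0.235 next to low-ratio windows and 0.203 next to the others. How far leaving out low-ratio windows raises the outside ratios was not tested. The inside is low by the rule, so a step at the edges follows from the choice. In the 500 kb before the low-ratio windows the ERY to HSC ratio was 0.309 and in the 500 kb after them 0.351, against 0.346 and 0.344 around the other peak-dense windows. In the 100 kb just inside the edges it was 0.146, and in the 100 kb just outside 0.332. The 51 windows that adjoin a low-ratio window held 959 ERY and 2972 HSC peaks (0.323), against 0.340 for windows next to the others. Their CMP to HSC ratio was 0.580, against 0.591. By window, the median ERY to HSC ratio was 0.300 next to low-ratio windows and 0.326 next to the others. Under the main limits, neighbouring megabases thus had ratios a little below those around the other peak-dense windows. With a ratio limit of 0.15 the pooled ratio next door was lower, at 0.235 (interval 0.189 to 0.287).

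**Figure D5:**
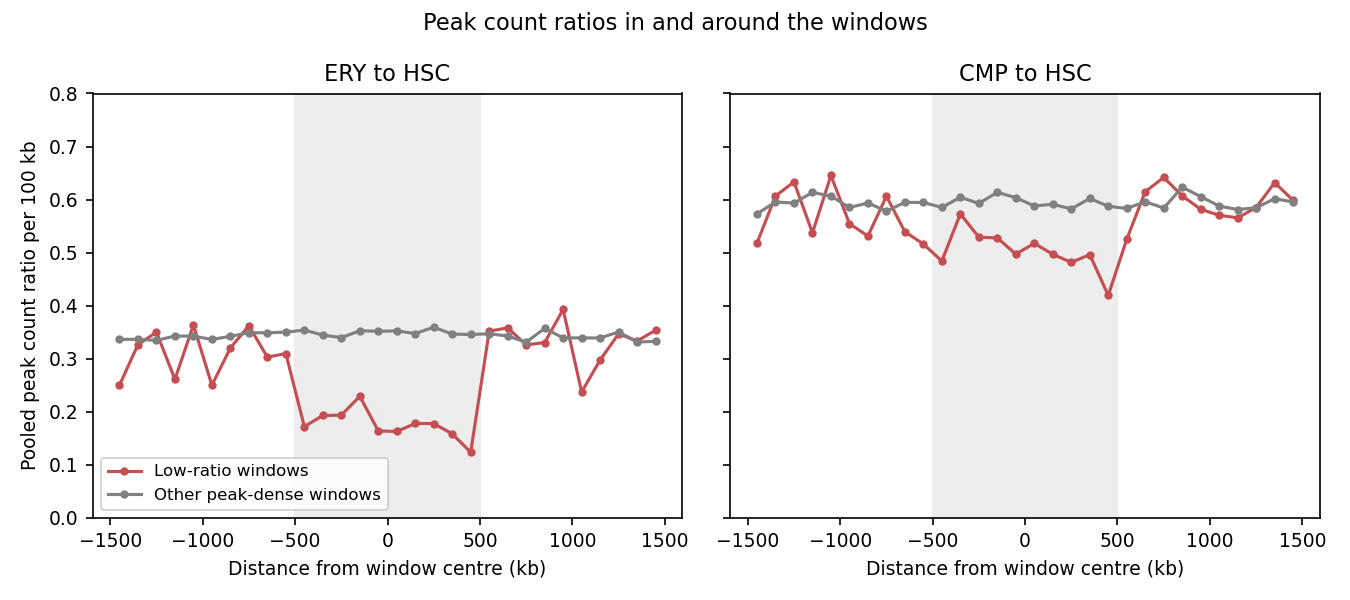
Pooled ERY to HSC (left) and CMP to HSC (right) peak count ratios in bins of 100 kb against the distance from the window centre in kb, for the 27 low-ratio windows and the 554 other peak-dense windows, with the window itself shaded. Inside, the ERY to HSC ratio of the low-ratio windows lies between 0.124 and 0.229, and it steps up at both edges, as the choice of windows implies, while the CMP to HSC ratio (0.419 to 0.573 inside) differs less. Outside the shaded part, megabases that are low-ratio windows themselves were left out.

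The edges are those of the grid, not of any feature in the lists. When the windows were cut from position 500000 instead, 20 windows with 1236 HSC peaks met the same limits. Only 262 HSC peaks were common to both sets, which is 16.4% of the first and 21.2% of the second. The share kept in CMP was then 47.2% (44.4 to 50.1%), and its difference from the other peak-dense windows was -11.1 points. The level of the values was alike under both grids, while most of the places were not. Both grids applied the same ERY to HSC limit, which fixes the ERY level and, in part, the CMP share. The likeness is therefore no independent support.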

How the data were processed

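For each MBD2-enriched library the authors deposited a peak list of chromosome, start and end, with no score, exported from a table browser query per the file headers. Reads were 36 bp single-end on an Illumina Genome Analyzer, per the labels' protocols, and positions are on mm9, per the submitters' processing notes. No source used here names an aligner or a peak caller with its threshold and control. A list's length may thus depend on its library's unknown depth.

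Windows, peak counts, 1 bp overlaps and exact binomial intervals were computed with scipy 1.17.1, pandas 2.3.3 and numpy 2.4.6 under Python 3.11.15. Overlap counts equalled those of bedtools 2.31.1 (49020 HSC peaks over CMP, 26519 over ERY). The window rule was also run on simulated lists. That run asked only whether planted low-ratio windows were found again, not how many windows would meet the limits by chance. No mm9 genome or annotation was used, so sequence, CpG content and gene features were not analysed here. The windows and comparisons were chosen with earlier results of these data known. Windows were named by lowest ratio (10), most HSC peaks (3), highest and lowest CMP to HSC ratio (3 each) and nearness to the limits. Peaks were named by width (5 per class). The 100 kb layouts were added after the data were seen.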

Additional observations from a re-analysis of the deposited data

How the results depend on the processing

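Values are given for windows, HSC peaks in them, kept share in CMP, kept share in ERY, difference in CMP from the other peak-dense windows, share of CMP-kept peaks also in ERY, CMP to HSC ratio, ERY to HSC ratio next door and median width, where they moved beyond the counting interval or 1.5 times. With the wider 50% of each list they were 4 windows, 214 peaks, 44.4%, 14.5%, -6.03 points (interval -12.6 to 0.732), 28.4%, 0.533, 0.354 and 954.5 bp. A minimum of 40 HSC peaks gave 53 windows and 2750 peaks. A minimum of 60 gave 8 windows, 577 peaks, 52.5% in CMP, -6.23 points, a CMP to HSC ratio of 0.539 and 777 bp. A ratio limit of 0.15 gave 3 windows, 162 peaks, 53.7% in CMP, 11.1% in ERY, -4.24 points, 20.7% of CMP-kept peaks, a CMP to HSC ratio of 0.556 and 0.235 next door. A limit of 0.25 gave 79 windows, 4901 peaks, 20.5% in ERY and 38.7% of CMP-kept peaks. Allowing a gap of 500 bp gave 51.1% in CMP. Stricter or looser limits change the counts and the ERY shares by construction, and for the other shifts the cause was not tested. The remaining 59 of 89 values stayed within those bounds, among them all that left out 1 window, and none changed sign. No paired analysis was possible because each cell type has 1 library. Without read depth, how far sensitivity sets the ERY counts was not tested.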
